A study of Mus musculus with 4 samples.

Results

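The insulin-like growth factor system was read in mouse primary chondrocytes as 10 genes, namely the ligands Igf1 and Igf2, the receptors Igf1r and Igf2r, and the binding proteins Igfbp2, Igfbp3, Igfbp4, Igfbp5, Igfbp6 and Igfbp7. They were chosen by name, through every array probe that the files assign to one of their RefSeq transcripts, and not by their signal. These 10 genes are among 37074 genes or unnamed transcripts on the array. They were read by 14 probes on 27 spots, and all 14 probes were well above background on all 4 arrays, so no member was lost to a filter. Igf1 had 4 probes and Igfbp2 had 2, Igf2r was spotted 10 times, and the other 7 genes rested on 1 spot each.

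The cells came from 6-day-old C57BL/6J mice, either Prrx1-Cre; Rela fl/fl (cKO) or their Rela fl/fl littermates (the control), and were cultured for 3 days with TNF at 10 ng/mL or without it. Rela encodes the p65 subunit of NF-κB, and both genotypes carry the floxed allele on both chromosomes. The Prrx1 promoter drives Cre in limb mesenchyme before cartilage forms, so any deletion would date from then and would not be limited to chondrocytes. Each combination of genotype and treatment was hybridised to 1 array of 1 colour, and how many animals gave the RNA of an array is not given. No difference below therefore has a replicate check or a p-value.

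Igf1 and Igf2 are secreted growth factors that drive longitudinal bone growth and matrix synthesis by chondrocytes. Both act through the receptor tyrosine kinase Igf1r, whereas Igf2r carries Igf2 to the lysosome. The binding proteins hold the ligands outside the cell, and proteases release them again. In cartilage the balance of these proteins is known to shift with inflammatory cytokines.

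Signals are given relative to the 75th percentile of the transcript spots on the same array, which is 1 by definition, and differences were taken within a probe. Signals of different probes were set side by side only to pick the brightest probe of a gene and in the sums of the marker lists, where a few bright probes carry most of a sum. Differences are on the log2 scale, where 1 is a 2-fold difference. Probes spotted 10 times gave a technical spread of 0.138 for a log2 difference between a pair of arrays from single spots, and differences under 0.276, which is 2 such spreads, are treated as not distinguishable. The same limit was used for probes with repeated spots, whose means vary less, so it is wider than needed for them. The technical spread leaves out the variation between cultures and between animals. In such bulk RNA, fewer cells of a type and less RNA per cell cannot be told apart.

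Rela itself was not lower on the cKO-labelled arrays (signals of 28.4 and 34.9 on the control arrays without and with TNF, and 34.0 and 40.2 on those labelled cKO), so directions by genotype follow the labels only. It was read by 1 spot, and the place of that probe relative to the floxed part of the gene is not given in the sources used here. A probe outside the deleted part would check nothing. Nfkbia, an NF-κB target that encodes an inhibitor of NF-κB, and the protease gene Mmp3 were lower on the cKO-labelled array with TNF by log2 differences of -0.71 and -3.38, and differed by -0.06 and -1.30 without TNF. Xist, the RNA that silences an X chromosome in female cells, was well above background on both control arrays and on neither cKO-labelled array. The Y-linked genes Ddx3y and Eif2s3y were higher on the cKO-labelled arrays by log2 differences of 1.49 to 1.83. Genotype label and the mix of sexes thus cannot be told apart here. The TNF-responsive chemokine gene Ccl2 was higher with TNF by 5.02 in control cells and by 3.17 on the cKO-labelled arrays. All 11 chondrocyte markers were well above background on every array. Of the leukocyte list, Ptprc was not on any array while Itgam, Csf1r, Lyz2 and Adgre1 were on all 4 by their brightest probes. Of the endothelial list, Cdh5 and Tek were not on any while Kdr and Pecam1 were on all 4 by their brightest probes, and of the muscle list Myod1, Myog and Ckm were not on any while Acta1 was on all 4. Spots that were bright on a single array lay in patches covering 1.04% to 10.7% of an array. Of the 27 member spots, 4 lay in a patch on some array, and they are named where they occur.

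Promoters of 4 members are shown because 3 of these genes (Igfbp3, Igfbp7 and Igf1) were the members whose brightest probes were higher with TNF in control cells beyond 2 technical spreads, and because Igfbp5 had the only match to the NF-κB consensus (kappaB) among the 14 member promoters that RefSeq gives for the 10 genes. Each is the 250 bases before the annotated start on the gene's strand in GRCm38.p6, written 5′ to 3′, and capitals mark the kappaB match. Igfbp3 (chr11:7213924-7214173, minus strand), Igfbp7 (chr5:77408046-77408295, minus strand), Igf1 (chr10:87860861-87861110, plus strand) and Igfbp5 (chr1:72874866-72875115, minus strand) follow.
Igfbp3 promoter: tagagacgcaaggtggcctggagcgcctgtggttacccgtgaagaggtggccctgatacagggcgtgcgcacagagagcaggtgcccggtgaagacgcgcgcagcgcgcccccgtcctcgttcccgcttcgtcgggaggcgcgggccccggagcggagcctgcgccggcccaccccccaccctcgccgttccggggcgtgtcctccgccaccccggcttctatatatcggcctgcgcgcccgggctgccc
Igfbp7 promoter: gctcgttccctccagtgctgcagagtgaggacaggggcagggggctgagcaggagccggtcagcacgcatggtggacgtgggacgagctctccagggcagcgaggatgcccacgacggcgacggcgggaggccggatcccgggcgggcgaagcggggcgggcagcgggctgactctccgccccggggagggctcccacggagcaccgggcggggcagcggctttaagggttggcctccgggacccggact
Igf1 promoter: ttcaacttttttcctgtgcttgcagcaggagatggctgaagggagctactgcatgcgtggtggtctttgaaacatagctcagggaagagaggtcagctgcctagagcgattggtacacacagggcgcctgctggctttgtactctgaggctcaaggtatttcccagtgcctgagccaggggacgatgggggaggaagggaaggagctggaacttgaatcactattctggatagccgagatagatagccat
Igfbp5 promoter: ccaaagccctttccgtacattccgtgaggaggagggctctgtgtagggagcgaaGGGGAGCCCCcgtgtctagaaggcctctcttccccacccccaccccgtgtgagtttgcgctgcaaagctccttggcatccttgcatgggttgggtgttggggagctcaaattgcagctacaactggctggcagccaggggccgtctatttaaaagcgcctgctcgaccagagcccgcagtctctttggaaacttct

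Both strands were searched, and a kappaB match was present in 3.9% of 32851 promoters of this length. The match in Igfbp5 lies on the strand opposite to the gene, with its first base at position -196 from the start. The letters TATAA, also sought on both strands, were found in 2 of the 14 member promoters, those of Igfbp4 and Igfbp6, against 22.8% of all promoters. The Igfbp3 and Igfbp7 promoters were rich in CG, with 32 and 26 such dinucleotides against a median of 6 over all promoters, and 95.4% and 90.4% of promoters held fewer. The Igf1 promoter held 5 and the Igfbp5 promoter 10. A match of letters is a description and not a binding site, and other windows were not searched.

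Igf1 (NM_010512), the ligand that mediates much of the growth-promoting effect of growth hormone, was higher with TNF in control cells on its 3 brighter probes, and on the cKO-labelled arrays the same probes were not. On its brightest probe (A_55_P2031631, 2 spots), the signal was 0.672 in control cells without TNF, 0.927 with TNF, 0.927 on the cKO-labelled array without TNF and 0.768 with TNF. The lowest of the 4 values was that of control cells without TNF. A second probe (A_55_P2085984) gave 0.604, 0.895, 0.837 and 0.714 in the same order, and probe A_55_P2085974 gave 0.261, 0.466, 0.321 and 0.245. With TNF these 3 probes were higher in control cells by 0.46, 0.57 and 0.84, and on the cKO-labelled arrays the differences were -0.27, -0.23 and -0.39. The first and second of the latter differences were within 2 technical spreads, though with no scaling between arrays they were -0.37 and -0.33. Over their 6 spots, the difference with TNF ran from 0.44 to 0.85 in control cells and from -0.48 to -0.18 on the cKO-labelled arrays. These spots were read on the same single arrays and are not replicates of a condition. Over all 8 Igf1 spots, the ranges were -0.07 to 0.85 and -0.48 to 0.0009, which overlap. On the array of control cells without TNF, 1 of the 6 spots lay in a patch, and it gave a TNF difference of 0.44 where its partner of the same probe gave 0.48. The fourth Igf1 probe (A_55_P2031636) was dim, at 0.085, 0.087, 0.087 and 0.086, and its differences ran from -0.02 to 0.04, with single spots from -0.19 to 0.28. The probes thus disagree, and which Igf1 transcripts each one reads was not tested.

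**Figure D1:**
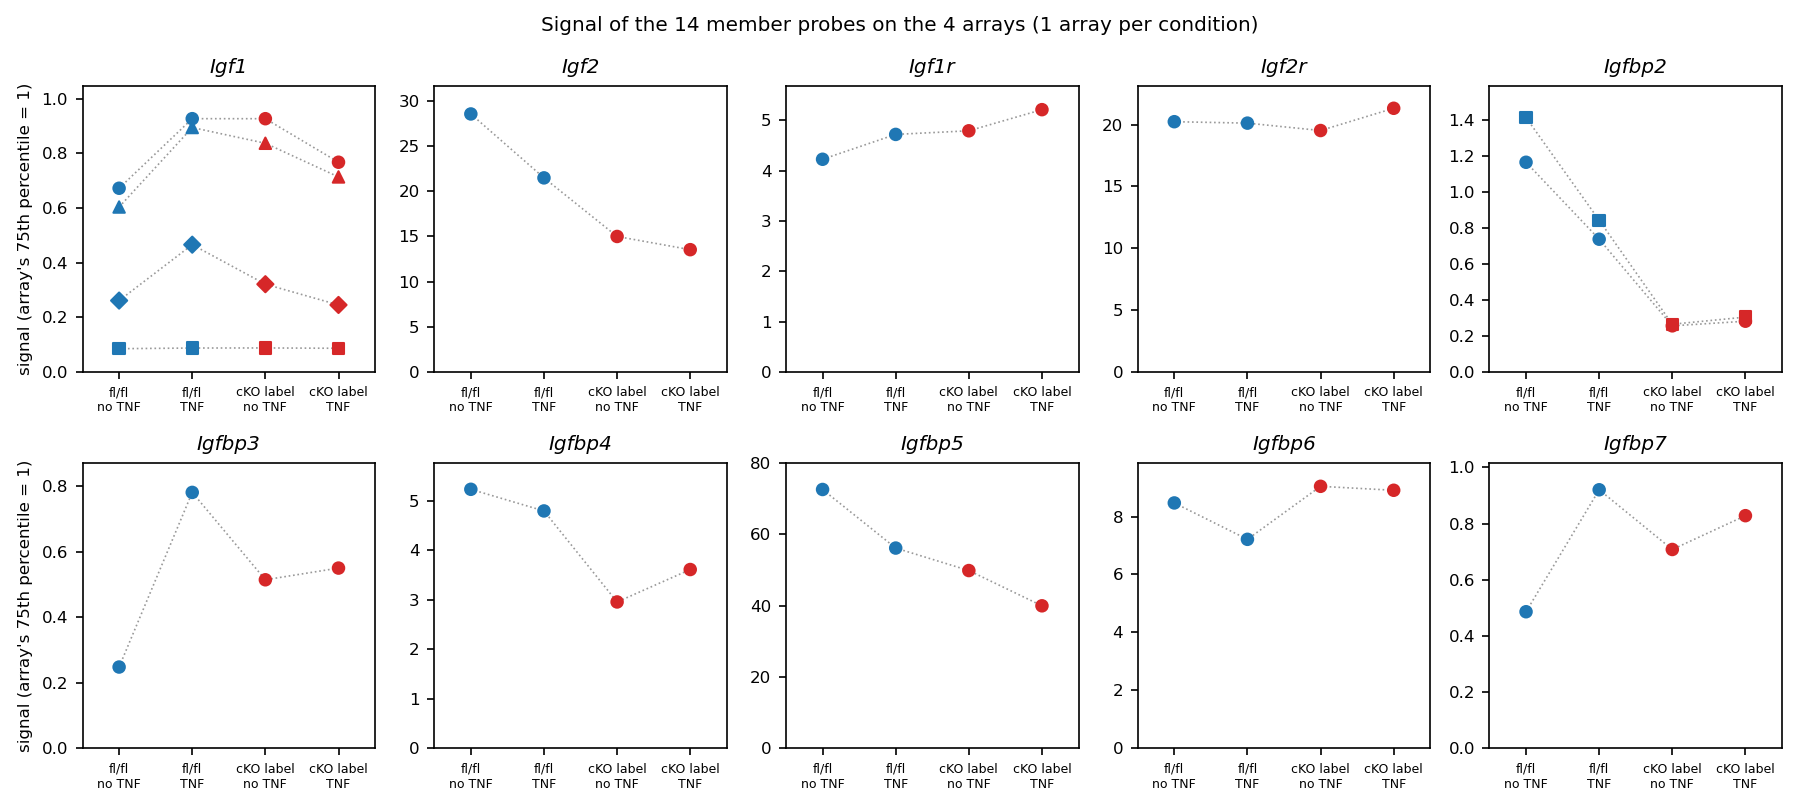
Signal of each member probe (y axis from 0, in units of the array's 75th percentile) on the 4 arrays (x axis, blue for control, Rela fl/fl and red for the cKO-labelled arrays), 1 panel per gene. Each point is the mean of the spots of 1 probe on 1 array, different symbols are different probes of a gene, and dotted lines join the values of 1 probe only to guide the eye. Igfbp2 stands between 0.739 and 1.42 on the blue arrays and between 0.256 and 0.305 on the red ones, whereas Igf2r stays between 19.5 and 21.3.

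Igf2 (NM_010514), the ligand of fetal growth, was lower on the cKO-labelled arrays. Its signal was 28.6 in control cells without TNF, 21.5 with TNF, 15.0 on the cKO-labelled array without TNF and 13.5 with TNF. The differences by genotype label were -0.93 without TNF (1.91-fold lower) and -0.67 with TNF (1.59-fold lower), short of the 2-fold limit. With TNF, Igf2 was lower by a log2 difference of -0.41 in control cells, and the difference on the cKO-labelled arrays, -0.15, was within 2 technical spreads. H19, the noncoding RNA of the same imprinted region, was read by 5 probes named as such in the files. Its differences by genotype label were -0.41 to -0.27 without TNF, where 3 of the 5 probes were beyond 2 technical spreads, and -0.38 to -0.26 with TNF, where 2 were. The brightest H19 probe was within 2 technical spreads in both. Probe A_30_P01028827, beyond them in both (-0.37 and -0.38), had its only spot in a patch on both cKO-labelled arrays.

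The receptors differed little. Igf1r, which binds both ligands and signals through Irs1, Irs2 and PI3K, had signals of 4.23, 4.72, 4.79 and 5.22 in control cells without and with TNF and on the cKO-labelled arrays without and with TNF. Its differences of 0.12 to 0.18 were all within 2 technical spreads. Igf2r, the mannose 6-phosphate receptor, had signals of 20.2, 20.1, 19.5 and 21.3 in that order. Its 10 spots make it the most precisely measured member. The differences with TNF were -0.01 with an SD over the 10 spots of 0.0296 in control cells, and 0.13 with an SD of 0.0411 on the cKO-labelled arrays, where all 10 spots were above 0. The latter difference was 0.02 in the authors' scaling, so it depends on the scaling. By genotype label they were -0.05 with an SD of 0.0322 without TNF and 0.08 with an SD of 0.035 with TNF. These SDs cover the spots of single arrays and not cultures, and 1 of the 10 spots lay in a patch on the cKO-labelled array without TNF.

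**Figure D2:**
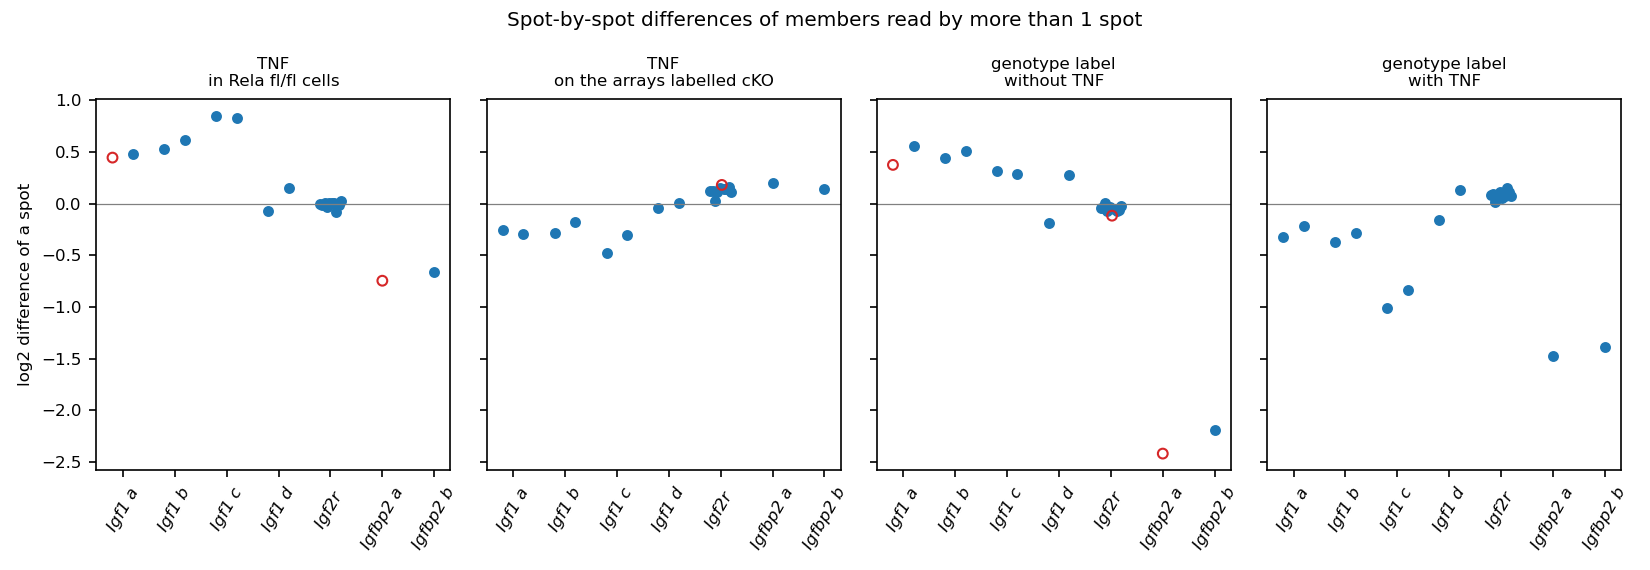
Log2 difference of each spot (y axis) for the probes of Igf1 (a to d are A_55_P2031631, A_55_P2085984, A_55_P2085974 and A_55_P2031636), Igf2r and Igfbp2 (a is A_66_P135391 and b is A_55_P2056729), 1 panel per comparison. Open red circles are spots in a patch on one of the arrays compared. The Igf1 spots of probes a to c are all above 0 with TNF in control cells and all below 0 on the cKO-labelled arrays, and the 10 Igf2r spots lie close together.

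Among the binding proteins, Igfbp3 and Igfbp7 were higher with TNF in control cells. Igfbp3 (NM_008343), the main carrier of Igf1 in blood, had a signal of 0.248 in control cells without TNF, 0.781 with TNF, 0.514 on the cKO-labelled array without TNF and 0.550 with TNF. Both cKO-labelled arrays fell between the control values. The difference with TNF was 1.65 in control cells (3.15-fold higher) and 0.10 on the cKO-labelled arrays, within the technical spread. By genotype label, Igfbp3 was higher by 1.05 without TNF (2.07-fold) and lower by a log2 difference of -0.51 with TNF. Its only spot lay in no patch. Igfbp7 (NM_001159518), a secreted protein that binds these ligands weakly, showed signals of 0.486, 0.920, 0.708 and 0.828 in the same order. Its difference with TNF was 0.92 in control cells (1.89-fold) and 0.23 on the cKO-labelled arrays, and its differences by genotype label were 0.54 and -0.15. Its spot lay in a patch on the cKO-labelled array without TNF, which enters the comparisons of 0.23 and 0.54 but not that of 0.92.

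Igfbp2 differed most by genotype label among the members. Igfbp2 (NM_008342), a binding protein with a preference for Igf2, had signals on its brighter probe (A_66_P135391) of 1.42 and 0.844 in control cells without and with TNF, and of 0.265 and 0.305 on the cKO-labelled arrays. The other probe (A_55_P2056729) gave 1.17, 0.739, 0.256 and 0.282. The difference by genotype label was -2.42 (5.34-fold lower) and -2.19 (4.56-fold lower) on these probes without TNF, and -1.47 and -1.39 (2.77-fold and 2.62-fold lower) with TNF. With TNF, the probes were lower by log2 differences of -0.75 and -0.66 in control cells, and differed by 0.20 and 0.14 on the cKO-labelled arrays. The spot of the brighter probe lay in a patch on the array of control cells without TNF. The spot of the other probe lay in none, and its values are those without the patch.

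Igfbp4 and Igfbp5 were lower on the cKO-labelled arrays as well. Igfbp4 (NM_010517), an inhibitor of Igf1 that is cleaved by the protease Pappa, had signals of 5.23 and 4.79 in control cells without and with TNF, and 2.95 and 3.61 on the cKO-labelled arrays. Its differences by genotype label were -0.82 (1.77-fold lower) without TNF and -0.41 with TNF. With TNF the differences were -0.13 in control cells and 0.29 on the cKO-labelled arrays, the latter just beyond 2 technical spreads and at 0.18 in the authors' scaling. Igfbp5 (NM_010518), a matrix-bound form made by chondrocytes and osteoblasts, had signals of 72.5, 56.1, 49.8 and 39.9 in the same order as Igfbp4. It was the only member lower in all 4 comparisons beyond 2 technical spreads, with differences with TNF of -0.37 and -0.32 and differences by genotype label of -0.54 and -0.49. Igfbp6 (NM_008344), which binds Igf2 with high preference, had signals of 8.47, 7.21, 9.04 and 8.91. Of its differences, only that by genotype label with TNF, 0.30, was beyond 2 technical spreads, and it was 0.25 in the authors' scaling. In the RefSeq order of protein-coding genes, Igfbp2 and Igfbp5 are neighbours on chromosome 1, and Igfbp3 is next to Igfbp1 on chromosome 11. Igfbp1, the form best known from liver, was not well above background on any array.

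The treatment comparisons ask how the members differed with TNF under each genotype label. In control cells, 1 of the 10 members (Igfbp3, higher) was past 2-fold, and on the cKO-labelled arrays 0 were. Of all genes with a value, 6.66% of 23423 and 5.03% of 24927 were past 2-fold in the same comparisons, so the member counts are near the background. At 1.5-fold, Igfbp3 and Igfbp7 were higher and Igfbp2 lower in control cells, 3 of 10 against a background of 10.8%. On the cKO-labelled arrays no member was past 1.5-fold, with a background of 10.7%. Beyond 2 technical spreads, 3 members were higher (Igfbp3, Igfbp7 and Igf1) and 3 lower (Igfbp2, Igf2 and Igfbp5) in control cells, against 23.7% of all genes in either direction. On the cKO-labelled arrays, 1 was higher (Igfbp4) and 1 lower (Igfbp5), against 28.2% of all genes, and which members these are depended on the scaling. The median difference of the members was -0.07 in control cells, where that of all genes was 0.01, and 0.11 on the cKO-labelled arrays, where that of all genes was 0.05. With spots in patches left out, 9 members had a value and the same member was past 2-fold in control cells. The background dropped to 1.23%, and it was 2.01% for the cKO-labelled arrays.

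**Figure D3:**
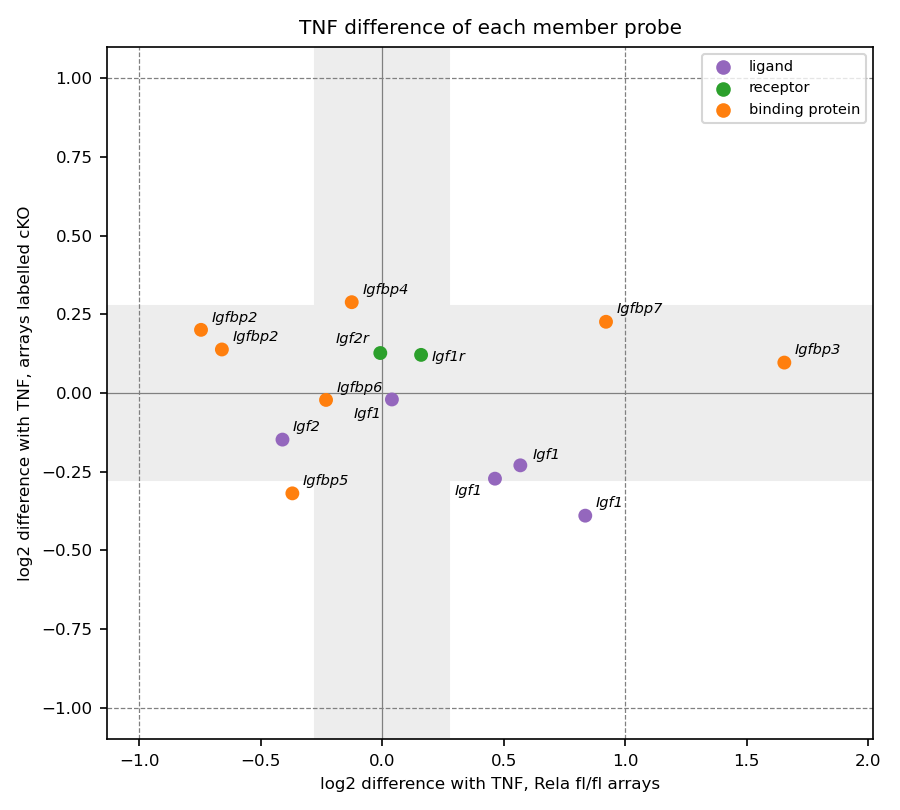
Log2 difference with TNF of each of the 14 member probes in control cells (x axis) and on the cKO-labelled arrays (y axis), coloured by role. Each point is 1 probe from 1 array per condition, dashed lines mark 2-fold, and grey bands mark 2 technical spreads of 0 on each axis. Igfbp3 is the only point past 2-fold (1.65), and 3 Igf1 points lie to the right of the vertical grey band and below 0 on the y axis.

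The TNF differences of control cells and of the cKO-labelled arrays were furthest apart for Igfbp3, where the difference with TNF on the cKO-labelled arrays minus that in control cells was -1.56. For the 3 brighter Igf1 probes it was -0.74, -0.80 and -1.23, and for Igfbp7 it was -0.69. Igfbp2 went the other way, at 0.95 and 0.80 on its probes. For Igfbp5 it was 0.05 and for Igf1r it was -0.04. These values compare 4 single arrays and were not tested.

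For the genotype label, the comparison asks how the cells labelled Prrx1-Cre; Rela fl/fl differed from those labelled as littermates. Without TNF, 2 of the 10 members were past 2-fold, Igfbp3 higher and Igfbp2 lower on the cKO-labelled array, against 7.67% of 24297 genes. With TNF, 1 was (Igfbp2, lower), against 4.26% of 24533. At 1.5-fold, Igfbp3 was higher and Igf2, Igfbp2 and Igfbp4 lower without TNF, 4 of 10 with a background of 13.5%. With TNF, Igf2 and Igfbp2 were lower, 2 of 10 with a background of 10.1%. Beyond 2 technical spreads, 3 members were higher (Igfbp3, Igfbp7 and Igf1) and 4 lower without TNF, and 1 was higher (Igfbp6) and 5 lower with TNF, against 29.2% and 29.3% of all genes in either direction. Igf2, Igfbp2, Igfbp4 and Igfbp5 were lower beyond 2 technical spreads in both comparisons, 4 of 10 with a background of 3.66% of 22849 genes. This share counts only genes lower in both, the direction seen in these members. The share differing the same way in either direction, which would be larger, was not computed. Whether the cells of both arrays of a label came from the same animals is not given. Igfbp3 differed in opposite directions, at 1.05 without TNF and -0.51 with it. The members' median was 0.02 without TNF, where that of all genes was 0.00, and -0.34 with TNF, where that of all genes was 0.05. With patches left out, 9 members had a value, and Igfbp2 was counted by its other probe. The same members were past 2-fold, and the background was 2.14% without TNF and 1.93% with it.

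**Figure D4:**
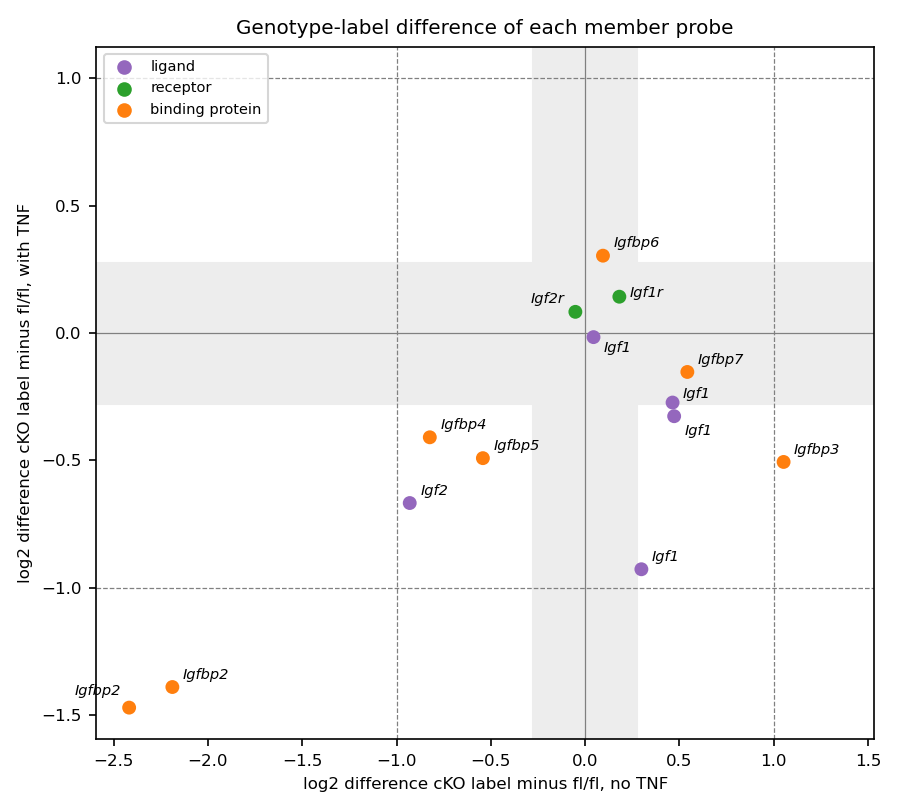
Log2 difference between the cKO-labelled and the control arrays of each of the 14 member probes without TNF (x axis) and with TNF (y axis), coloured by role. Each point is 1 probe from 1 array per condition, dashed lines mark 2-fold, and grey bands mark 2 technical spreads of 0 on each axis. Both Igfbp2 probes stand apart at the lower left (-2.42 and -2.19 without TNF), with Igf2, Igfbp4 and Igfbp5 between them and 0.

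Markers of cartilage and bone cells also differed with the genotype label, and some markers with TNF. Of the 11 chondrocyte markers, 1 was higher and 7 lower beyond 2 technical spreads on the cKO-labelled array without TNF, and 1 was higher and 5 lower with TNF, against the 29.2% and 29.3% of all genes given above. Matn1, a cartilage matrix protein, differed by -1.86 and -1.19, whereas Col10a1, the collagen of hypertrophic chondrocytes, differed by 0.83 and 0.96, and the cartilage collagen gene Col2a1 by -0.03 and -0.01. The summed signal of the chondrocyte list was 1684 and 1604 in control cells without and with TNF, and 1349 and 1376 on the cKO-labelled arrays. With TNF, 0 of the chondrocyte markers were higher and 4 lower in control cells, among them the link protein gene Hapln1 at -0.43, and 1 was higher (Matn1 at 0.37) and 0 lower on the cKO-labelled arrays, against the 23.7% and 28.2% given above. For the osteoblast list, 4 of whose 5 genes had a probe, the summed signal was 4.34 and 3.61, and 9.40 and 7.10, nearly all of it from the bone sialoprotein gene Ibsp (9.16 of the 9.40). Dmp1 was not well above background on any array, and the other 3 genes were higher on the cKO-labelled arrays beyond 2 technical spreads both without and with TNF. Single comparisons had 29.2% and 29.3% of all genes in either direction, and the share of all genes higher in both was not computed. Ibsp was higher by 1.13 and 0.97. The osteoblast transcription factor gene Sp7 was higher by 0.70 and by at least 1.81, and Runx2 by 0.60 and by 0.47. The Runx2 signal on the control array without TNF was not well above background. With TNF, Sp7 differed by -1.09 or lower in control cells and by 0.02 on the cKO-labelled arrays, and Ibsp by -0.26 and -0.42. Of the 7 fibroblast markers, 0 were higher and 3 lower beyond 2 technical spreads on the cKO-labelled array without TNF, and 1 was higher and 3 lower with TNF, against the same shares. Dpt, read by 10 spots, differed by -1.62 and -1.17 and Thy1 by -1.59 and -0.28, and the summed signal of the list, between 734 and 785, did not show this. With TNF, 2 of the 7 were higher and 2 lower in control cells, and 4 were higher and 0 lower on the cKO-labelled arrays. The shares of all genes in either direction were the 23.7% and 28.2% given above. The growth factor receptor gene Pdgfra, read by 10 spots, was higher with TNF by 0.75 and 0.57, whereas Thy1 differed by -0.69 and 0.63. For the leukocyte list, 5 of whose 6 genes had a probe, the sum was 34.9 to 43.9 and was mostly that of 1 Itgam probe (A_55_P1977934, 31.8 to 40.4). The other 2 Itgam probes were at 0.041 to 0.552, and one of them was not well above background on either control array, so the Itgam probes disagree. By genotype label, Lyz2 differed by -2.11 without TNF and -0.94 with TNF and Adgre1 by 2.87 and -0.50, on their brightest probes, each a single spot that lay in a patch on 1 of the arrays without TNF. With TNF, Lyz2 differed by -1.42 in control cells and -0.25 on the cKO-labelled arrays, and Adgre1 by -0.10 and -3.48. For the endothelial list of 5 the sum was 17.9 to 20.7, nearly all of it from the single spot of 1 Kdr probe (A_55_P2094469, 17.5 to 20.5). The other Kdr probe, with 10 spots, was at 0.014 to 0.034 and not well above background on 2 of the 4 arrays, so the Kdr probes disagree as well. Pecam1 differed by 0.37 and -0.02 by genotype label without and with TNF. Emcn was well above background only on the cKO-labelled array without TNF, where its spot lay in a patch. For the muscle list of 6 the sum was 1.91 and 1.76 in control cells without and with TNF, and 2.77 and 2.58 on the cKO-labelled arrays. Most of it was that of the skeletal actin gene Acta1, which was higher by genotype label by 0.54 and 0.53. With TNF, Des, which was not well above background on the control array, was higher by at least 0.47. The part of these cell types in the TNF differences of Igfbp3, Igfbp7 and Igf1, and of these cell types or sex in the genotype differences of Igf2, Igfbp2, Igfbp3, Igfbp4 and Igfbp5, was not tested.

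The rest of the pathway was described from lists of 51 genes, all with a probe, and was set beside the shares of all genes past 2-fold given above (6.66%, 5.03%, 7.67% and 4.26%). In control cells with TNF, 0 were higher and 1 was lower among 48 with a value. On the cKO-labelled arrays, 0 were higher and 1 was lower among 49. By genotype label, 1 was higher and 1 lower without TNF, and 0 were higher and 1 was lower with TNF, of 49 each. Their median differences were 0.02, 0.08, -0.02 and 0.07 in these 4 comparisons, set against 0.01, 0.05, 0.00 and 0.05 over all genes.

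The genes past 2-fold were Foxo3, Stc1 and Igfbpl1. Foxo3, a transcription factor that insulin-like growth factor signalling keeps out of the nucleus, had signals of 0.199 in control cells without TNF and 0.081, 0.066 and 0.087 on the other arrays, and its high spot lay in a patch. Stc1, a stanniocalcin that inhibits Pappa, was well above background only on the cKO-labelled array without TNF (0.583), where its spot lay in a patch, and was at least 11.1-fold higher there than in control cells without TNF and at least 19.7-fold higher than on the cKO-labelled array with TNF. Igfbpl1, a relative of the binding proteins, was well above background only in control cells with TNF (0.090) and lay in no patch, and was at least 3.03-fold higher there than on the cKO-labelled array with TNF. Foxo3 and Stc1 were each read by 1 spot, so neither difference past 2-fold rests on a spot outside a patch.

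The other genes chosen for naming differed less. Ghr, the growth hormone receptor, ranged from 2.80 to 3.30 in signal, and no difference of its brightest probe exceeded 0.15 in size. Pappa, which cleaves Igfbp4 and Igfbp5, had signals of 2.97, 2.90, 4.81 and 3.55 in control cells without and with TNF and on the cKO-labelled arrays, with its spot in a patch on the control array with TNF and on the cKO-labelled array without TNF. Its differences by genotype label were 0.70 and 0.29. Stc2, the other stanniocalcin, was higher with TNF on the cKO-labelled arrays by 0.50 and differed by -0.03 in control cells. Insr, the insulin receptor, and Irs1, an adaptor of both receptors, stayed within 2 technical spreads in all comparisons on their brightest probes. Irs2, the second adaptor, was lower in control cells with TNF by a log2 difference of -0.35, and lower on the cKO-labelled arrays by -0.50 without TNF and -0.28 with TNF. The RNA-binding proteins Igf2bp1 and Igf2bp2 stayed within 2 technical spreads, and Igf2bp3 passed them once, at 0.29 by genotype label with TNF. Pik3r1, a regulatory subunit of PI3K that was named after its values were seen, had signals of 1.26, 1.36, 0.969 and 0.756 in control cells without and with TNF and on the cKO-labelled arrays without and with TNF. Its differences by genotype label were -0.38 and -0.85, and those with TNF were 0.11 in control cells and -0.36 on the cKO-labelled arrays.

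**Figure D5:**
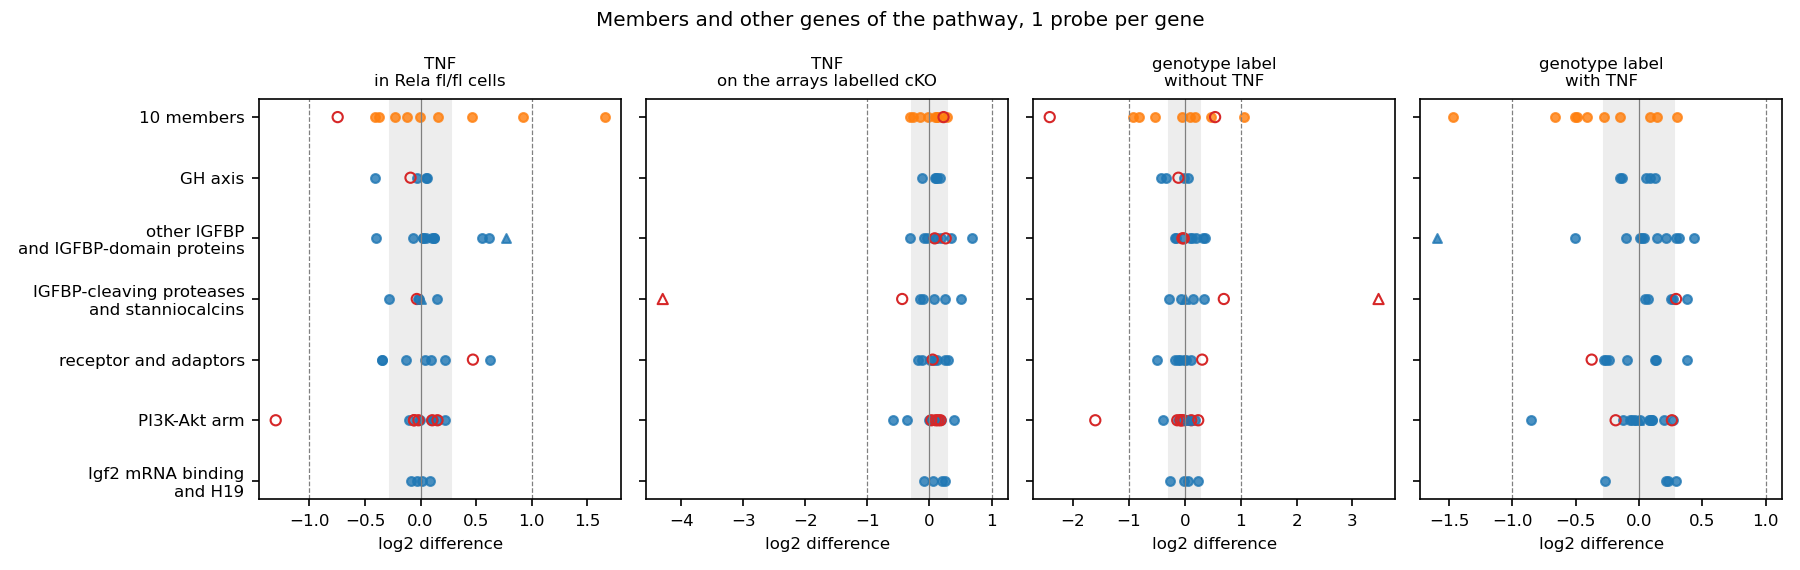
Log2 differences (x axis, with its own range in each panel) of the 10 members (orange) and of the other pathway genes (blue) by list, 1 panel per comparison and 1 point per gene, read by its brightest probe. Open red symbols have every spot in a patch on one of the arrays compared, triangles are lower bounds in size because one array was not well above background, dashed lines mark 2-fold and the grey band marks 2 technical spreads of 0. The members reach from -2.42 to 1.65, and outside patches the other genes go past 2-fold only at Igfbpl1 (-1.60 by genotype label with TNF).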

How the data were processed

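Total RNA of the primary chondrocytes was labelled with Cy3 and hybridised to 4 arrays on 1 slide, read in 1 scan. The authors deposited the processed intensity of each spot, written by Agilent Feature Extraction 10.10.1.1 (per the submitters' processing notes), with background subtracted and spatial trends removed, and with flags (coded 0 or 1) for outlier spots and for spots well above background. A further deposited table held scaled intensity, the processed intensity times 1 factor per array (1.77 to 1.83). These columns were used as an alternative.

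From the deposited intensity, log2 values were taken and the 75th percentile of the array's transcript spots (589 to 633 units) was subtracted. Outlier spots were dropped, repeated spots were averaged, and each gene was counted by its brightest probe. Unversioned accessions were matched to RefSeq symbols (GRCm38.p6) for 27235 of 55681 probes. H19 kept the name it has in the files. A gene had a value in a comparison where either array was well above background. A signal that was not was raised to the array's lowest signal still well above background, if it lay below that. A difference from a raised signal is a lower bound. Where the array that was brighter after this step was not well above background, the difference was set to 0. Genes were counted at 2-fold. Patches were spots with 3 or more of the 54 spots within 5 rows and 2 columns at least 2-fold brighter than on each other array. The members, lists, alternatives and patch rule were chosen with earlier results of these data known. Members were all named, with pathway genes past 2-fold and 12 further ones named by rule. With 1 array per condition no test was run, and the number of arrays limits the precision. The counting was tested on simulated data. Alternatives were no scaling, the authors' table, quantile normalization, normexp (offset 50, on the median signal of each spot because the mean was not among the columns, a change of plan), filters, probe rules, limits and leaving out patches. The promoter sequences are those of RefSeq for GRCm38.p6, while the array files name another assembly, from which no coordinates were taken. Python 3.11.15, numpy 2.4.6, pandas 2.3.3, matplotlib 3.10.9 and R 4.3.3 with limma 3.58.1 were used.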

Additional observations from a re-analysis of the deposited data

Results flagged for a closer look

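The Igf1 probe A_55_P2085974 differed with TNF in opposite directions by genotype label, by 0.84 in control cells and by -0.39 on the cKO-labelled arrays, both beyond 2 technical spreads. The latter value was -0.22 under quantile normalization and -0.26 under normexp, both within 2 technical spreads. The difference between these values was not tested, since each condition had 1 array.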

How the results depend on the processing

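The count of members past 2-fold with TNF in control cells, 1, became 3 at a 1.5-fold limit. The count by genotype label without TNF, 2, became 1 with normexp background correction, where Igfbp3 gave 0.73, and 4 at 1.5-fold and 1 at 3-fold. The count by genotype label with TNF, 1, became 2 at 1.5-fold and 0 at 3-fold. All other settings of these counts, and every setting of the count of 0 on the cKO-labelled arrays, left them within 1.5 times.

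Of 276 values of single member probes under other settings, 260 moved by less than the technical spread and 16 by more, 11 of them under normexp and 5 under quantile normalization, and 1 of the 16 changed sign (the dim Igf1 probe A_55_P2031636 with TNF on the cKO-labelled arrays, from -0.02 to 0.23 under quantile normalization). Under normexp the 2 Igfbp2 probes gave -1.94 and -1.84 by genotype label without TNF and -1.13 and -1.07 with TNF, Igfbp3 gave 1.26 and Igfbp7 0.77 with TNF in control cells, and the Igf1 probe A_55_P2085974 gave 0.54, and -0.26 on the cKO-labelled arrays, within 2 technical spreads. Under quantile normalization, with TNF on the cKO-labelled arrays, A_55_P2085974 gave -0.22 and Igfbp4 0.21, both within 2 technical spreads, while the Igfbp2 probes gave 0.36 and 0.30, beyond them. The cause of these shifts was not tested. In that comparison the median of all genes went from 0.05 to -0.05 with the authors' table, and Igfbp4 from 0.29 to 0.18. With patches left out, the brighter Igfbp2 probe had no value in the comparisons with the array of control cells without TNF, and Igfbp7 had none in those with the cKO-labelled array without TNF. No paired analysis was possible because each condition had 1 array, so no replicate numbers could pair arrays and no replicate could be left out. An additive fit of genotype label and TNF over the 4 arrays, which would leave 1 residual degree of freedom, was not run. All members were well above background on every array, yet normexp background correction gave 11 of the 16 values that moved.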

Other observations

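Among the other pathway genes, Esm1, a proteoglycan with a domain like that of the binding proteins, was higher with TNF by 0.61 in control cells and by 0.68 on the cKO-labelled arrays. Grb14, an adaptor that dampens insulin receptor signalling, was higher with TNF by 0.62 in control cells and differed by 0.05 on the cKO-labelled arrays. These 2 genes were named after their values were seen.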
